A study of Mus musculus with 15 samples.

Results

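The genotype difference was examined in hippocampal RNA of 8 mice that received only vehicle, 4 Tg2576 and 4 wild-type (WT) mice, chosen by their labels out of 15 mice in the series. Tg2576 mice (labelled Tg2576 +/+) carry human amyloid precursor protein (APP) with the Swedish familial Alzheimer mutation, driven by the prion promoter. The WT mice (labelled Tg2576 -/-) were littermates without the transgene. All mice were females of 18 to 20 months, and vehicle was sesame oil given into the stomach every day for 5 weeks. The other 7 mice (4 WT and 3 Tg2576) received docosahexaenoic acid (DHA) in the same oil and share no animal with this comparison, so the same genes were also read in them.

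Amyloid-β is cut from APP by β- and γ-secretase, and in this line plaques are laid down late in life. Around plaques, microglia take on a phagocytic and lipid-handling state that is sensed and driven through the receptor TREM2, and astrocytes become reactive and fill with intermediate filaments. In the hippocampus, the dentate gyrus receives the entorhinal input on its granule cells, and adhesion proteins, guidance receptors and postsynaptic scaffolds hold its synapses together.

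Total counts ranged from 21538455 to 46596489 in the WT and from 17372864 to 30152880 in the Tg2576 mice. The library of Tg2576 mouse 1 stood apart. It was the shallowest and had the lowest mean correlation with its own group (0.969 on log2 CPM, against 0.972 to 0.975 in the other Tg2576 and 0.980 to 0.984 in the WT mice). Its homeostatic microglial genes and myelin genes lay 0.74 and 0.72 below the WT mean on the log2 scale, where the other Tg2576 mice lay between 0.23 and 0.43 above and between -0.093 and 0.062. Total RNA was taken from tissue, in which fewer cells of a type and less RNA per cell cannot be told apart.

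At an unadjusted p under 0.01 in edgeR, 604 of 19536 genes differed between Tg2576 and WT mice (3.09%), with 226 higher (1.16%) and 378 lower in Tg2576 mice (1.93%). The groups did not overlap for 5.16% of all genes tested, 2.18% higher and 2.98% lower. The called genes differed by direction in size of change and in abundance. Genes that rose did so by a median of 0.74 on the log2 scale and were of modest abundance (median 7.63 CPM), and 77 of the 226 more than doubled. Genes that fell dropped by a median of 0.41, came from abundant transcripts (median 50.9 CPM), and only 38 of the 378 more than halved. The median over all genes tested was 12.3 CPM. A fixed p threshold passes small changes more readily in abundant genes than in scarce ones, so size and abundance are tied by the choice of genes. After adjustment over all genes, 3 had a p under 0.05 (0.0154%), beside 2100 with an unadjusted p under 0.05 (10.7%). The count was 965 without Tg2576 mouse 1, 399 without Tg2576 mouse 3, 400 without Tg2576 mouse 4, 377 without WT mouse 1 and 312 without WT mouse 2. With library sizes in place of TMM factors, 303 genes were higher and 269 lower.

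App, the mouse gene on which reads of the transgene were also counted, was read first as a check of the genotype. The 4 WT mice had 1651, 1787, 1763 and 1608 CPM and the Tg2576 mice 2615, 2365, 2313 and 2076 CPM. Every Tg2576 mouse was above every WT mouse (log2 fold change 0.46, standard error 0.08496, edgeR adjusted p = 0.0766). The highest App level was in Tg2576 mouse 1. Prnp, the gene of the prion protein, had 887 to 1025 CPM in WT and 967 to 1087 CPM in Tg2576 mice (log2 fold change 0.083, adjusted p = 0.726). Of the 20 tested genes of APP processing and clearance, App alone was higher, and Sorl1, an APP sorting receptor, was lower, at 525, 582, 418 and 417 CPM in WT and 364, 360.2, 344 and 369 CPM in Tg2576 mice (log2 fold change -0.43). Over all genes, 1.16% were higher and 1.93% lower. The β-secretase gene Bace1 did not pass the threshold (log2 fold change -0.28, edgeR adjusted p = 0.345). Without Tg2576 mouse 1, 2 genes of this list were lower, and 4 without Tg2576 mouse 2.

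**Figure D1:**
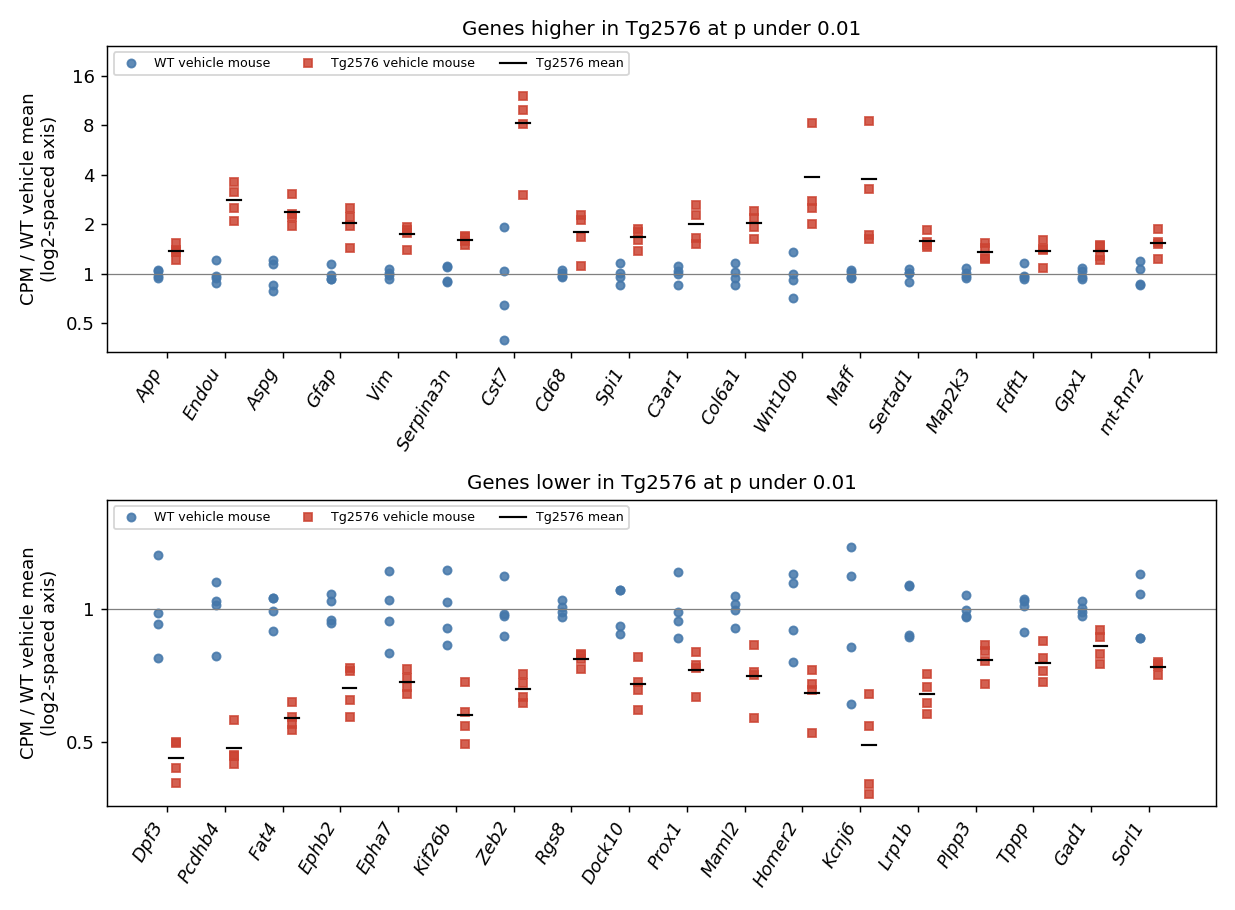
Levels of named genes in each vehicle mouse, as CPM divided by the mean of the 4 WT mice on a log2-spaced axis; circles are WT mice, squares Tg2576 mice and black lines Tg2576 means. Cst7 stands highest above WT (log2 fold change 3.02), Wnt10b and Maff have 1 mouse far above the others, and of the genes shown only Fdft1 and Kcnj6 overlap between the groups.

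The 3 genes with an adjusted p of 0.049 were Endou, Aspg and Dpf3. Gene positions are on GRCm38, from the first to the last exon base of the count files. Endou (ENSMUSG00000022468.12, chromosome 15, 97711015 to 97731339), an endoribonuclease that cuts at uridines, had 1.03, 1.02, 0.946 and 1.29 CPM in the WT and 3.86, 2.23, 3.35 and 2.68 CPM in the Tg2576 mice. All Tg2576 mice lay well above the WT range, at a log2 fold change of 1.49 (standard error 0.225). Aspg (ENSMUSG00000037686.6, chromosome 12, 112106679 to 112127559), an asparaginase that is also a marker of reactive astrocytes, had 6.91, 6.29, 9.76 and 9.18 CPM in WT and 18.5, 15.7, 17.9 and 24.6 CPM in Tg2576 mice. Its log2 fold change was 1.25 (standard error 0.199). Dpf3 (ENSMUSG00000021221.15, chromosome 12, 83213745 to 83487716), a chromatin-reading subunit of BAF remodelling complexes, had 9.93, 13.4, 7.84 and 9.39 CPM in WT and 4.09, 5.07, 5.03 and 4.43 CPM in Tg2576 mice. It fell by 1.12 on the log2 scale (standard error 0.175), with no overlap between the groups. In the DHA-treated mice, the genotype difference was 0.29 for Endou, 0.89 for Aspg and -0.35 for Dpf3, of which that of Aspg alone had a p under 0.01. The interaction of genotype and DHA had an unadjusted p of 0.00187 for Endou and 0.00786 for Dpf3 (adjusted p = 0.845 and 0.845). Both genes were chosen by their vehicle difference, which is part of the interaction, so a low p there follows in part from that choice. Endou had 1.69 to 2.07 CPM in WT and 2.01 to 2.52 CPM in Tg2576 mice given DHA. Every WT mouse given DHA thus lay above the WT mice given vehicle for Endou.

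Reactive astrocyte genes rose as a group. Of 24 tested members, 9 had a p under 0.01 and all 9 were higher (1.16% of all genes), 8 had groups that did not overlap, and 23 had a positive fold change, where 50% of all genes did. The median was 0.60, against 3.0e-04 over all genes. Gfap (ENSMUSG00000020932.14, chromosome 11, 102887336 to 102900912), the intermediate filament that defines the reactive state, had 543, 568, 544 and 670.4 CPM in WT and 830.4, 1283, 1465 and 1135 CPM in Tg2576 mice. It about doubled (log2 fold change 1.02, standard error 0.181, adjusted p = 0.0766), and Tg2576 mouse 1 had the lowest of the Tg2576 values. Vimentin (Vim), a second intermediate filament, had 47.9, 50.1, 54.8 and 52.02 CPM in WT and 90.9, 94.9, 98.8 and 71.7 CPM in Tg2576 mice (log2 fold change 0.80). Serpina3n, a secreted protease inhibitor, rose from 62.4 ± 7.48 to 101 ± 5.42 CPM (SD, n = 4 and n = 4).

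The other members that rose were the cytokine-signalling inhibitor Socs3 (1.07), the calcium-binding protein S100a6 (0.94), the iron-carrier-binding lipocalin Lcn2 (1.99), the glycosyltransferase Ggta1 (1.02) and the oncostatin M receptor Osmr (0.85). Lcn2 was scarce, at 0.302, 1.35, 0.743 and 0.542 CPM in WT and 4.995, 2.71, 2.41 and 1.22 CPM in Tg2576 mice, and its groups overlapped. Osmr overlapped by a small margin and kept its call in 2 of 8 fits with 1 mouse removed, with p up to 0.0232. Genes of resting astrocytes did not move with them. None of the 16 tested astrocyte markers was called, and their median was -0.068. The list count stayed between 8 and 10 when any single mouse was left out and was 10 without Tg2576 mouse 1.

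Microglial genes of the plaque-associated state were also higher, unevenly between mice. Of 26 tested members, 6 were called and all 6 were higher (1.16% of all genes), with a median of 0.40 and 22 positive. Cst7 (ENSMUSG00000068129.5, chromosome 2, 150570415 to 150578944), a cysteine protease inhibitor of activated microglia, had 1.25, 0.774, 0.473 and 2.29 CPM in WT and 3.58, 9.73, 14.4 and 11.8 CPM in Tg2576 mice. Its groups did not overlap, and the log2 fold change was 3.02 (standard error 0.522, adjusted p = 0.0766). Cd68, a lysosomal membrane protein of phagocytes, had 10.1, 9.43, 9.29 and 9.84 CPM in WT and 10.8, 16.3, 20.5 and 22.2 CPM in Tg2576 mice (log2 fold change 0.85), with Tg2576 mouse 1 just above the WT range. Tyrobp, the signalling partner of TREM2, had 16.3, 15.6, 13.4 and 22.1 CPM in WT and 15.9, 33.1, 38.6 and 40.5 CPM in Tg2576 mice. Tg2576 mouse 1 lay within the WT range, and the other 3 lay above it. Trem2 had 12.6, 18.7, 15.5 and 14.7 CPM in WT and 8.86, 33.5, 41.6 and 33.3 CPM in Tg2576 mice and did not pass (log2 fold change 0.94, edgeR adjusted p = 0.448), with Tg2576 mouse 1 below the WT range and the other 3 above it.

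The surface antigen Cd52 (1.13) and the chemokines Ccl6 (0.95) and Ccl3 (1.65) completed the 6. The count was 11 without Tg2576 mouse 1, 6 without WT mouse 4 and 2 or 3 without any other mouse. Tyrobp, Ccl6 and Ccl3 each kept a call in 2 of 8 fits with 1 mouse removed (p up to 0.0177, 0.0279 and 0.0348), and Cd52 had 0.0113 without WT mouse 1. Averaged over the list, Tg2576 mice 1 to 4 lay 0.042, 0.76, 0.79 and 0.54 from the WT mean on the log2 scale, and WT mice 1 to 4 0.03, -0.0098, -0.18 and 0.16. The 15 homeostatic microglial genes had no call, and 2 were higher without Tg2576 mouse 1. Their fractalkine receptor Cx3cr1 had 49.4, 55.1, 55.5 and 59.5 CPM in WT and 39.6, 65.5, 76.1 and 63.5 CPM in Tg2576 mice, and their median (0.16) was -0.031 without Tg2576 mouse 3 and 0.32 without Tg2576 mouse 1. In the DHA-treated mice, 5 of the 15 homeostatic genes were called higher in Tg2576 mice (1.06% of all genes), and 13 were positive (median 0.42). Of the 26 plaque-associated genes, 8 were called higher there.

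General myeloid genes are expressed by plaque-associated and homeostatic microglia alike. All 28 tested genes had a positive fold change, 5 were called higher (1.16% of all genes) and the median was 0.48. Spi1, which encodes PU.1, the ETS-family transcription factor that sets myeloid identity, had 3.79, 4.26, 5.203 and 4.51 CPM in WT and 7.15, 6.14, 8.34 and 7.97 CPM in Tg2576 mice (log2 fold change 0.74). Ncf1, a subunit of the phagocyte NADPH oxidase, had 6.78, 7.98, 6.93 and 7.22 CPM in WT and 10.3, 11.1, 10.3 and 9.19 CPM in Tg2576 mice (log2 fold change 0.50). Neither gene overlapped between the groups. The tetraspanin Cd53 (0.76), the lysosomal protein Laptm5 (0.63) and the pore-forming protein Mpeg1 (0.72) were the other 3. Cd53 and Mpeg1 kept their calls in 5 of 8 fits with 1 mouse removed and Laptm5 in 7 (p up to 0.0153, 0.0163 and 0.0125 over these and the other settings). The count was 10 without Tg2576 mouse 1, 2 without Tg2576 mouse 3 and 3 without WT mouse 3, and 8 with DESeq2, with a gene length offset or with the 8 vehicle mice alone.

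Of the 20 complement genes tested, 4 were higher (1.16% of all genes) and the median was 0.50. C3ar1, the microglial receptor of the C3a fragment, had 2.37, 2.13, 1.82 and 2.23 CPM in WT and 5.56, 3.23, 4.899 and 3.54 CPM in Tg2576 mice (log2 fold change 1.0), with no overlap. C1qc, a chain of the initiating C1q complex, had 33.3, 43.1, 47.2 and 60.99 CPM in WT and 70.7, 54.7, 90.8 and 72.6 CPM in Tg2576 mice (log2 fold change 0.65), and the groups overlapped. The C1 inhibitor Serping1 (0.72) and the protease C1s1 (1.18) were the others. The complement count was 6 without Tg2576 mouse 1 and 2 without Tg2576 mouse 3, where C1qc had a p of 0.0164, and C1qc was also lost without WT mouse 1 or 2. Serping1 had a p of 0.0109 without Tg2576 mouse 2, and C1s1 0.0124 without Tg2576 mouse 3.

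Among 33 tested lysosomal genes, 4 were higher (1.16% of all genes) and 29 positive, with a smaller median (0.17). Progranulin (Grn), a regulator of lysosomes, had 64.7, 73.5, 68.3 and 75.8 CPM in WT and 79.5, 92.8, 109 and 100.2 CPM in Tg2576 mice (log2 fold change 0.44). The glucuronidase Gusb (0.38) and the cathepsins Ctss (0.56) and Ctsh (0.65) also rose. Ctss kept its call in 4 of 8 fits with 1 mouse removed and Ctsh in 2 (p up to 0.0267 and 0.0281 over these and the other settings). The lysosomal count was 7 without Tg2576 mouse 1 and 2 without Tg2576 mouse 3, WT mouse 1 or WT mouse 3. Antigen presentation genes had a median of 0.64 over 17 genes, with 15 positive and 4 higher without overlap (2.18% of all genes). Yet 0 reached a p under 0.01 in edgeR (3 in DESeq2, 1 in limma-voom and 4 with the 8 vehicle mice alone). H2-D1, a class I heavy chain, had 35.4, 44.4, 44.1 and 22.6 CPM in WT and 75.4, 71.9, 86.6 and 46.5 CPM in Tg2576 mice, without overlap (log2 fold change 0.94, edgeR adjusted p = 0.399). Apoe, the lipid carrier made by astrocytes and activated microglia, did not pass either (2193 ± 328 CPM in WT and 2612 ± 191 CPM in Tg2576 mice, SD, n = 4 and n = 4).

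The upstream sequences of Cst7, the microglial gene with the largest fold change on these lists, and of C1qc, which alone held the longest form searched, are shown with the ETS core that PU.1 binds, since Spi1 was among the genes that rose. They are the 250 bases before the gene start from RefSeq (GRCm38.p6), with the match in capitals (AGGAAGT, and ACTTCCTC for GAGGAAGT on the other strand). Cst7 lies on the plus strand, chr2:150570165-150570414, and C1qc on the minus strand, chr4:136892915-136893164.
Cst7: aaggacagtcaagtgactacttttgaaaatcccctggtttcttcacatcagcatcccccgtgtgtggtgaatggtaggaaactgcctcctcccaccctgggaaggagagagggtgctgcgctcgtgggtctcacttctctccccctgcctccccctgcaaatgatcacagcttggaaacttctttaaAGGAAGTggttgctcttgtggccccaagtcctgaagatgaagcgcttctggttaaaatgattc
C1qc: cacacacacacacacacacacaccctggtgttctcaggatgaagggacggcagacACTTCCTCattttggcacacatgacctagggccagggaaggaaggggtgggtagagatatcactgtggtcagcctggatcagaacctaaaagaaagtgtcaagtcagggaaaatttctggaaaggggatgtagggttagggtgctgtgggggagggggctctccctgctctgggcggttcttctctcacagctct

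Of the 15 plaque-associated, myeloid and complement genes that were called, 11 had an upstream sequence in the table. On either strand, the form GAGGAAGT was found in 1 of them and in 2.44% of all 32851 promoters, and AGGAAGT in 3 (C1qc, Ccl6 and Cst7) and in 7.69%. The shorter nested forms GGAAGT and GAGGAA were each found in 5 of the 11 (19.7% and 23.3% of all promoters), and AGGAA in 9 (60.3%). All forms that were searched are given, and they were chosen after the values were seen. The STAT form TTCCNGGAA was found in 0 of the 9 called reactive astrocyte genes (0.913% of all promoters), and the sterol element SRE-1, searched as 10 letters, in 0 of the 3 called cholesterol genes in the table (0.0731%). These are letters in a window and say nothing of binding.

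**Figure D2:**
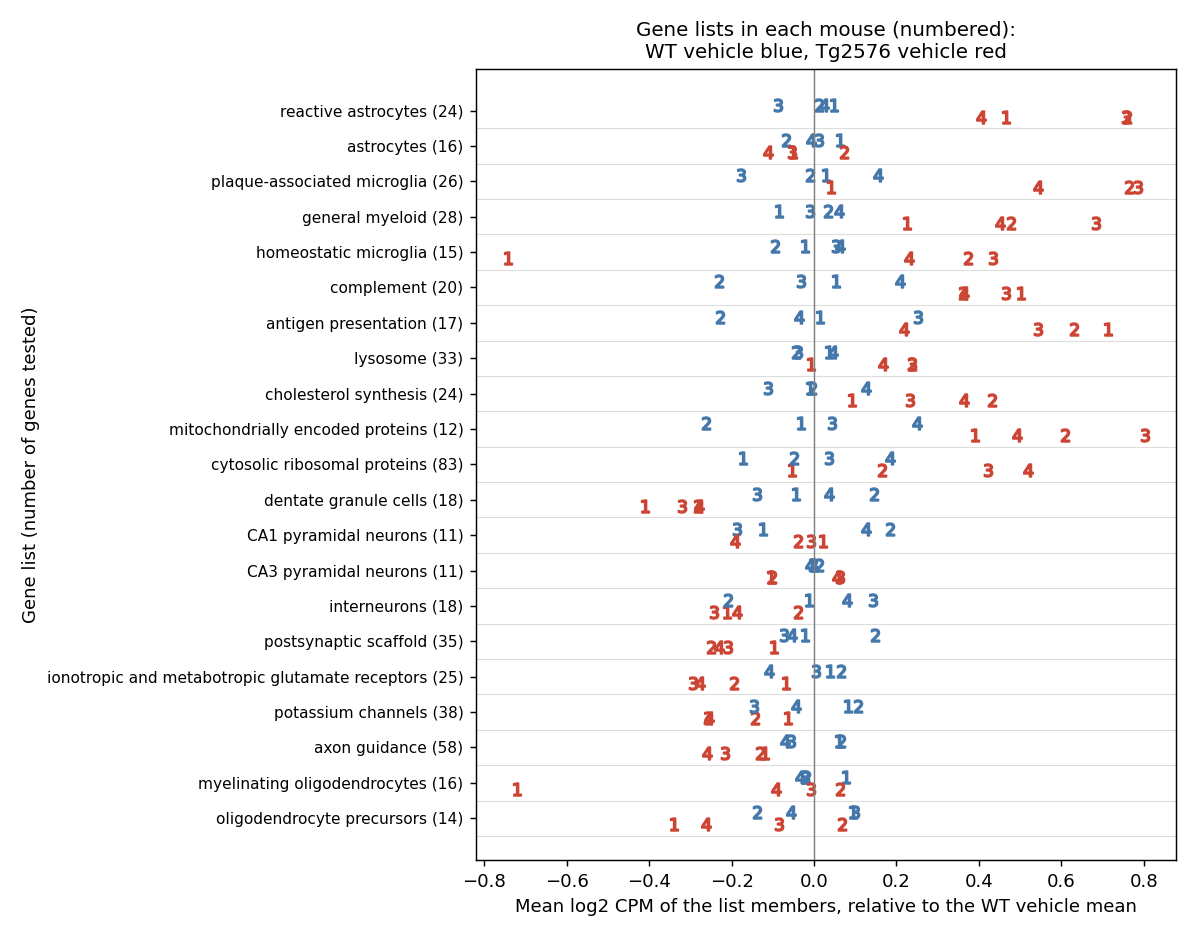
Mean log2 CPM of each gene list in each vehicle mouse relative to the mean of the WT mice, with mouse numbers as symbols (blue WT, red Tg2576) and the number of genes tested in parentheses. Every Tg2576 mouse lies above every WT mouse for reactive astrocytes, general myeloid, complement and mitochondrially encoded genes and below every WT mouse for dentate granule cells, postsynaptic scaffold and axon guidance, and Tg2576 mouse 1 lies apart for homeostatic microglia and myelin.

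Genes of the cholesterol synthesis list were higher together. Of 24 tested, 5 were called higher (1.16% of all genes) and 23 were positive (median 0.26). Fdft1, the squalene synthase, had 79.7, 78.7, 76.7 and 95.6 CPM in WT and 89.7, 117, 116 and 133 CPM in Tg2576 mice (log2 fold change 0.46), and Tg2576 mouse 1 lay below the highest WT mouse. Insig1, the sterol-sensing brake on this pathway, had 56.1, 52.3, 42.98 and 56.5 CPM in WT and 66.6, 86.7, 67.6 and 68.7 CPM in Tg2576 mice without overlap (log2 fold change 0.48). The thiolase Acat2 (0.38) and the decarboxylase Mvd (0.39) were also higher, and kept their calls in 3 and 2 of 8 fits with 1 mouse removed (p up to 0.0259 and 0.0312). The count was 10 without Tg2576 mouse 1, 2 without WT mouse 1, 3 without Tg2576 mouse 2, 3 or 4 or WT mouse 2, 3 with the 8 vehicle mice alone, and 8 with DESeq2 or with library sizes in place of TMM factors.

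Of 30 antioxidant genes, 4 were higher (1.16% of all genes), with a median of 0.17. The glutathione peroxidase Gpx1 had 39.7, 43.2, 38.5 and 44.8 CPM in WT and 50.4, 53.6, 61.5 and 62.1 CPM in Tg2576 mice (log2 fold change 0.45), with no overlap. In the DHA-treated mice its difference was -0.21, and the interaction had an unadjusted p of 0.00113 (adjusted p = 0.845). Gpx1 was chosen by its vehicle difference, which is part of the interaction. It had 46.3 to 66.3 CPM in WT and 41.5 to 52.0 CPM in Tg2576 mice given DHA. The peroxiredoxin Prdx6 rose by 0.36, the metallothionein Mt2 by 0.50 and the haem oxygenase Hmox1 by 0.49 on the log2 scale. Mt2 and Hmox1 each kept a call in 3 of 8 fits with 1 mouse removed (p up to 0.0256 and 0.0539), and the list count was 4 without Tg2576 mouse 1 and 2 without WT mouse 1 or WT mouse 2.

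Transcripts of the mitochondrial genome were higher in Tg2576 mice. Of the 18 genes tested on that chromosome, 7 were called, all higher (1.16% of all genes). Among 12 protein-coding genes 3 were called and all 12 were positive (median 0.53), with 0 of the 12 without overlap. The large ribosomal RNA mt-Rnr2 had 2337, 2860.2, 2289.8 and 3212 CPM in WT and 3276, 4085, 4982 and 4149 CPM in Tg2576 mice (log2 fold change 0.62, adjusted p = 0.101), without overlap. The complex I subunit mt-Nd6 had 323, 282, 333 and 448 CPM in WT and 372, 562, 696 and 553 CPM in Tg2576 mice (log2 fold change 0.66), with an overlap of the highest WT and lowest Tg2576 mouse. The share of all counts on the mitochondrial genome was 1.92% to 2.84% in WT and 2.21% to 3.38% in Tg2576 mice. The count of protein-coding genes was 6 without Tg2576 mouse 1, 5 without WT mouse 4 or with the replicate number as a block, 1 without Tg2576 mouse 3, WT mouse 1 or WT mouse 2, and 1 with a gene length offset.

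Nuclear genes of the respiratory chain and of ribosomes had smaller medians. Of 82 nuclear-encoded respiratory chain genes 74 were positive with 0 calls (median 0.17). Of 83 cytosolic ribosomal protein genes 82 were positive (median 0.26) with 1 call, Rpl30. Rpl30 kept its call in 5 of 8 fits with 1 mouse removed (p up to 0.0152). Over all genes, 50% were positive and 1.16% were called higher, so 1 call of 83 was near the share of all genes. With all genes split into 5 classes by exon length, 61.1% of the shortest class and 62.7% of the next were positive. Both lists hold short transcripts, with median exon lengths of 1578 and 1770 bases against 3693 over all genes. With a gene length offset the medians were 0.087 and 0.19, and under DHA they were -0.037 and -0.039. Ribosomal protein genes varied between mice, at -0.053, 0.16, 0.42 and 0.52 in Tg2576 and -0.17, -0.049, 0.036 and 0.19 in WT mice, and their count of calls was 18 without Tg2576 mouse 1, 7 without WT mouse 4 and 0 without Tg2576 mouse 3 or 4.

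The share of genes called differed with exon length. The genes were split into 5 classes of equal number by exon length. In the shortest class (up to 1723 bases), 1.56% were called higher and 0.486% lower, with a median log2 fold change of 0.11. In the longest class (from 6783 bases), 0.384% were higher and 4.61% lower, with a median of -0.099. Genes that fell had a median exon length of 6474.5 bases and those that rose 2708. The median of the shortest class relative to WT was 0.033, 0.033, 0.15 and 0.25 in the Tg2576 and -0.043, -0.056, 0.12 and 0.028 in the WT mice, so the groups overlapped. With a gene length offset in the model, 276 genes were higher and 350 lower, and 456 of the 604 calls were shared with the fit without it, all in the same direction. The part of this trend in the lower genes was not tested beyond this offset.

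**Figure D3:**
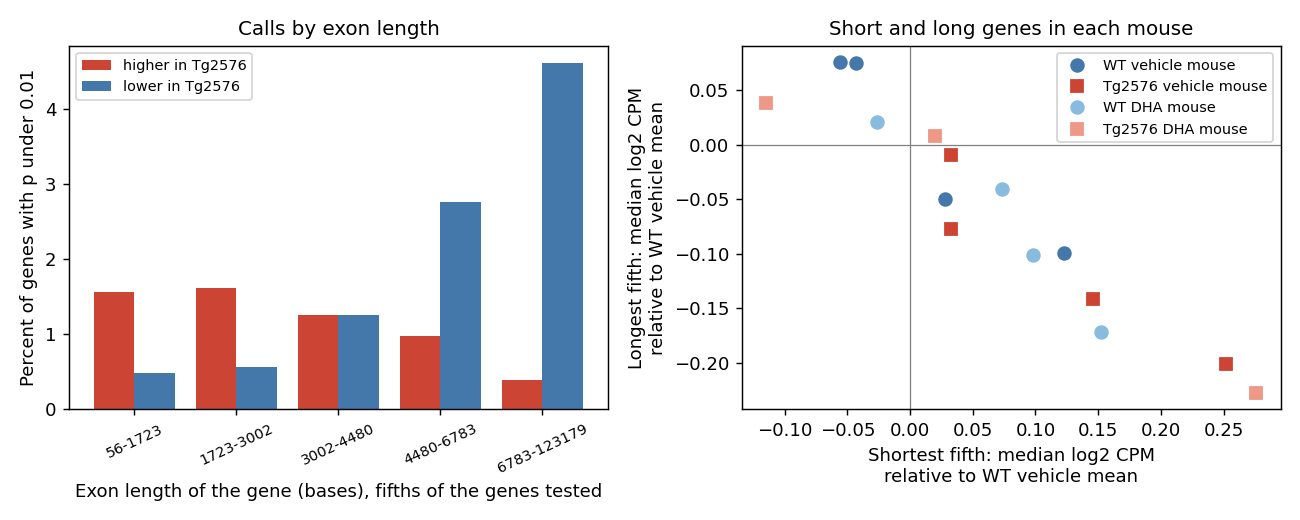
Left, percent of genes called higher and lower in Tg2576 mice by 5 classes of exon length in bases; right, median log2 CPM of the shortest and longest class in each of the 15 mice relative to the WT vehicle mean. Calls of lower genes rise from 0.486% to 4.61% with length, and mice of all groups lie along 1 line in which short genes are high where long genes are low.

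Several signalling genes outside these lists rose. Sertad1, a transcriptional co-regulator, had 6.78, 5.996, 7.16 and 6.7996 CPM in WT and 12.4, 9.95, 9.798 and 10.5 CPM in Tg2576 mice (log2 fold change 0.67), and the kinase Map2k3, which activates p38, had 13.03, 13.4, 15.03 and 13.9 CPM in WT and 21.3, 16.999, 19.8 and 17.3 CPM in Tg2576 mice (log2 fold change 0.44). Rab7b, a small GTPase of late endosomes, rose by 1.21 and Slc43a3, a nucleobase transporter, by 1.80 on the log2 scale from 0.659 ± 0.241 CPM (SD, n = 4) in WT mice. The bZIP factor Maff had 1.03, 1.06, 0.946 and 0.963 CPM in WT and 8.51, 3.296, 1.72 and 1.63 CPM in Tg2576 mice, and the Wnt ligand Wnt10b 0.603, 0.774, 1.15 and 0.842 CPM in WT and 6.98, 1.68, 2.32 and 2.11 CPM in Tg2576 mice. All Tg2576 mice exceeded all WT mice for both genes, and Tg2576 mouse 1 was far above its group. Without it, the log2 fold change was 1.15 for Maff and 1.28 for Wnt10b, against 1.90 and 1.94 with it. Under DHA, the genotype difference was 0.81 for Rab7b, 0.48 for Slc43a3, 0.43 for Maff and 0.38 for Wnt10b. Of these, that of Rab7b alone had an unadjusted p under 0.01.

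Ly6c2 had 0.27997, 0.339, 0.2703 and 0.421 CPM in WT and 3.24, 0.517, 1.89 and 2.85 CPM in Tg2576 mice. In mice given DHA it had 1.32 to 2.44 CPM in WT and 0.612 to 1.86 CPM in Tg2576 mice (log2 fold change -0.38). The interaction had an unadjusted p of 0.00034 (adjusted p = 0.845), and Ly6c2 was chosen by its vehicle difference, which is part of it. Ly6c2 shares sequence with its neighbour Ly6c1, an endothelial surface antigen that was higher too (0.58, p up to 0.0158 when 1 mouse was left out), and how reads were divided between them is uncertain. The collagen VI genes were chosen after their values were seen. Of 6 tested, Col6a1 and Col6a2, 2 chains of one extracellular trimer, were called higher (1.16% of all genes). Col6a1 had 55.2, 40.7, 48.8 and 44.7 CPM in WT and 91.4, 76.98, 104 and 114 CPM in Tg2576 mice (log2 fold change 1.03), and Col6a2 had 15.3, 11.1, 15.2 and 10.6 CPM in WT and 30.7, 19.8, 28.1 and 33.3 CPM in Tg2576 mice (log2 fold change 1.10). Neither overlapped between the groups. Markers of meninges and fibroblasts, which make collagens, had 0 calls of 14, yet 12 were positive with a median of 0.56 (0.60 under DHA, and 0.026 under vehicle without Tg2576 mouse 2). Their sum was 77.0 to 209 CPM in WT and 76.0 to 261 CPM in Tg2576 mice, and their part in the collagen difference was not tested.

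**Figure D4:**
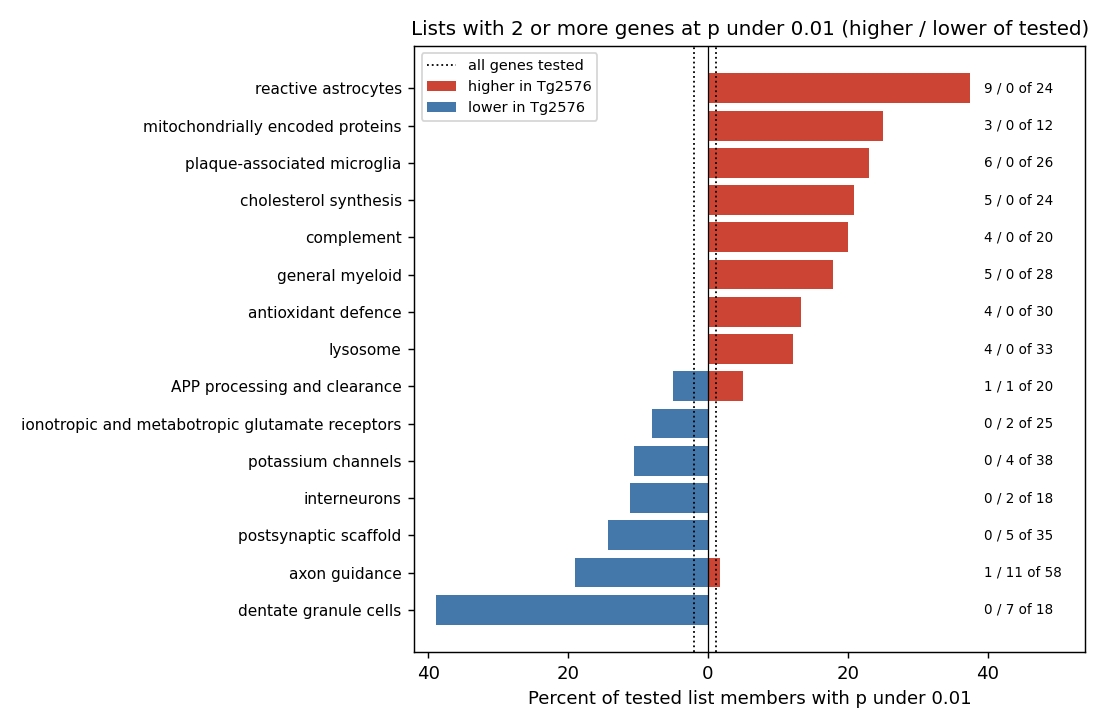
Percent of the tested members of each list called higher (right) or lower (left) in Tg2576 mice, with counts at the right and dotted lines at the percent of all genes (1.16% higher and 1.93% lower); lists with at least 2 calls are shown. Glial, complement, cholesterol and mitochondrial lists hold only higher calls, and dentate, synaptic and channel lists only lower ones.

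The 15 genes of lowest p that fell without overlap did so by less than 1 on the log2 scale apart from Dpf3 and Pcdhb4. Fat4 (ENSMUSG00000046743.6, chromosome 3, 38886940 to 39011985), a giant cadherin of planar polarity, had 45.3, 48.6, 40.9 and 48.6 CPM in WT and 26.1, 25.2, 24.4 and 28.2 CPM in Tg2576 mice. The groups lay far apart (log2 fold change -0.82, standard error 0.146, adjusted p = 0.0766). The kinesin-like protein Kif26b had 27.8, 32.98, 22.3 and 24.3 CPM in WT and 13.2, 18.4, 14.5 and 15.7 CPM in Tg2576 mice (log2 fold change -0.79). Zeb2, a zinc finger repressor, had 213, 259.7, 189.5 and 211 CPM in WT and 138, 155, 148 and 134 CPM in Tg2576 mice (log2 fold change -0.60).

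The G protein regulator Rgs8 (-0.38), the scaffold Wwc1, known as KIBRA (-0.42), the endocytic receptor Lrp1b (-0.64), the lipid phosphatase Plpp3 (-0.38), the tubulin-binding Tppp (-0.40) and the membrane protein Tmem108 (-0.52) also fell without overlap, as did Erich3 (-0.63) and AI464131 (-0.38). Under DHA, Kif26b and Zeb2 had differences of -0.0006 and 0.0015 between the genotypes, whereas AI464131 differed by -0.37, which passed the threshold there too. Kif26b had 16.1 to 23.4 CPM in WT and 18.3 to 22.7 CPM in Tg2576 mice given DHA, and Zeb2 157 to 191 and 136 to 191 CPM. For both genes, most WT mice given DHA lay below the range of WT mice given vehicle. For Fat4 all of them did (23.4 to 36.1 CPM, against 21.0 to 33.4 CPM in Tg2576 mice given DHA). The interaction had an unadjusted p of 0.00373 for Fat4, 0.0014 for Kif26b and 0.00195 for Zeb2, and none of them passed after adjustment (adjusted p = 0.845 for each). These genes were chosen by their vehicle difference, which is part of the interaction.

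Axon guidance receptors and ligands held the most lower calls of any list, 11 of 58 with 1 higher (1.93% of all genes were lower), and a median of -0.17. Of the 11, 6 were Eph receptors, tyrosine kinases that read ephrins on neighbouring cells, a family set apart after its values were seen. Its count of 6 (of 14 tested) was 2 without WT mouse 2, 3 without WT mouse 1 or Tg2576 mouse 4, 4 without Tg2576 mouse 3 or WT mouse 4 and 4 with a replicate block and gene length offset together, and it was 6 without Tg2576 mouse 1. Ephb2, a receptor of synapses and dendritic spines, had 42.9, 41.5, 37.6 and 36.9 CPM in WT and 22.6, 29.2, 24.7 and 28.7 CPM in Tg2576 mice (log2 fold change -0.59). Epha7 had 143, 186, 121 and 159 CPM in WT and 101, 97.8, 106 and 111 CPM in Tg2576 mice (log2 fold change -0.55), and the groups did not overlap for either gene. The semaphorin Sema6d (-0.43) and the netrin receptor Unc5b (-0.58) fell without overlap, and the member that rose was Efna1, an ephrin ligand. The list's count was 7 without WT mouse 1 and 6 without WT mouse 2, 15 without Tg2576 mouse 1 and 10 with a gene length offset (median -0.11), where the median exon length was 7172 bases.

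The cadherin superfamily, calcium-dependent adhesion proteins of neurons, was set out as a family after its values were seen. Of 99 tested members, 18 were lower (1.93% of all genes), 0 higher and 90 had a negative fold change (median -0.50). In the clustered protocadherins, whose combinations give each neuron its own surface identity, all 54 tested genes were negative (median -0.62, from -1.04 to -0.031). Of these, 8 were called lower (1.93% of all genes) and 13 were lower without overlap (2.98% of all genes). Pcdhb4 had 6.14, 6.92, 4.696 and 6.26 CPM in WT and 2.78, 3.36, 2.66 and 2.805 CPM in Tg2576 mice, less than any WT mouse in each (log2 fold change -1.04). These genes lie side by side on chromosome 18, resemble each other and partly share exons, so how reads were divided between them is uncertain and their values are not independent.

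Averaged over the cluster, the Tg2576 mice lay at -0.34, -0.37, -0.76 and -0.98 and the WT mice at 0.089, 0.17, -0.12 and -0.13 on the log2 scale. Tg2576 mouse 4 was lowest, and no Tg2576 mouse reached the WT range. Under DHA, 25 of the 54 were negative (median 0.012), and the WT mice lay between -0.54 and -0.15, below the WT mice given vehicle. The interaction had an unadjusted p under 0.01 for 6 of the 54 (0.829% of all genes). The family was chosen after its vehicle values were seen, and the vehicle difference is part of the interaction. The count of 8 was 20 without Tg2576 mouse 1, 5 without Tg2576 mouse 3, 4 without Tg2576 mouse 4 and 3 without WT mouse 2, the median stayed between -0.70 and -0.49, and it was -0.61 with a gene length offset. DESeq2 and limma-voom each called 14, and the fit with the replicate number as a block 13. For the whole superfamily the count of 18 was 32 without Tg2576 mouse 1, 11 without Tg2576 mouse 3 or 4 and 10 without WT mouse 2.

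Dentate granule cell genes held the most calls of the neuronal classes. Of 18 tested, 7 were lower (1.93% of all genes), 0 higher and 15 negative (median -0.37). Prox1, the homeobox factor that defines granule cells, had 86.4, 107, 75.8 and 82.6 CPM in WT and 55.6, 70.2, 64.8 and 65.8 CPM in Tg2576 mice (log2 fold change -0.46), and every Tg2576 mouse was below every WT mouse. Dock10, a guanine exchange factor of dendritic spines, had 129, 129, 107 and 102 CPM in WT and 91.05, 79.7, 76.3 and 68.98 CPM in Tg2576 mice (log2 fold change -0.56). Maml2, a co-activator of Notch, had 20.6, 21.5, 18.2 and 20.04 CPM in WT and 14.5, 16.6, 14.2 and 11.4 CPM in Tg2576 mice (log2 fold change -0.50). Neither overlapped.

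The cadherin Cdh9 (-0.63), Plekha2 (-0.34), the cation channel Trpc6 (-0.54) and the matrix protein Npnt (-0.40) were the other 4. The whole list lay at -0.41, -0.28, -0.32 and -0.28 in Tg2576 and -0.043, 0.15, -0.14 and 0.036 in WT mice. The count was 3 without WT mouse 2 and 4 without WT mouse 4, the p of Prox1 was 0.0115 without WT mouse 2, and the count was 6 without Tg2576 mouse 1 and 8 with a gene length offset (median -0.33). In the neighbouring fields, 1 of 11 CA1 genes (Ndst4, -0.78), 1 of 11 CA3 genes (Nectin3, -0.39) and 0 of 7 CA2 and 7 mossy cell genes were called, with medians of 0.01, -0.084, -0.10 and 0.26. Nectin3 overlapped between the groups and had a p of 0.0969 with the gene length offset and the replicate block.

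Synaptic genes were read as postsynaptic scaffold and as release machinery. Of 35 scaffold genes 5 were lower (14.3%) and 32 negative (median -0.21). Of 30 vesicle genes 1, Rph3a, was lower (3.33%, median -0.088), and it kept its call in 2 of 8 fits with 1 mouse removed. Over all genes 1.93% were lower, and 4.61% in the longest class of exon length, so the vesicle count was near the share of all genes. Without Tg2576 mouse 1, 3 vesicle genes were lower. Homer2, which links metabotropic glutamate receptors to calcium stores, had 82.5, 78.9, 52.3 and 61.8 CPM in WT and 49.95, 46.5, 44.99 and 36.1 CPM in Tg2576 mice (log2 fold change -0.64). Dlg3, also called SAP102, a scaffold of NMDA receptors, had 250.01, 281, 256 and 270.1 CPM in WT and 210.4, 219, 216 and 222 CPM in Tg2576 mice (log2 fold change -0.28). Neither gene overlapped. Shank3 (-0.39), Tanc1 (-0.45) and the spine exchange factor Kalrn (-0.37) were the other 3. Kalrn kept its call in 2 of 8 fits with 1 mouse removed, and with a gene length offset its log2 fold change was -0.13 (p up to 0.129). The scaffold genes are long (median 8451 bases), and with the offset their median was -0.083 and 5 were called, Kalrn not among them. The count was 9 without Tg2576 mouse 1 and 2 without Tg2576 mouse 4 or WT mouse 2.

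Receptors and channels followed in smaller numbers. Of 25 glutamate receptor genes, 2 were lower (Grm3, -0.59, and Grin2b, -0.49) and 23 negative, where 1.93% of all genes were lower. Of 15 GABA receptor genes 0 were called. Grin2b kept its call in 2 of 8 fits with 1 mouse removed (p up to 0.0366). The glutamate receptor count was 3 without Tg2576 mouse 1 and 1 without Tg2576 mouse 3, Tg2576 mouse 4, WT mouse 1 or WT mouse 2, and with a gene length offset the median went from -0.20 to -0.11 (median exon length 6721 bases). Kcnj6, a G protein-gated potassium channel, had 44.8, 52.2, 22.9 and 30.9 CPM in WT and 24.1, 20.5, 15.1 and 14.3 CPM in Tg2576 mice (log2 fold change -1.03), with Tg2576 mouse 1 above WT mouse 3. It was 1 of 4 lower genes among 38 potassium channel genes (10.5%, against 1.93% of all genes), with Kcna4 (-0.50), Dpp6 (-0.29) and Kcnd2 (-0.39). Kcnd2 kept its call in 2 of 8 fits with 1 mouse removed, and Dpp6 had a p of 0.0793 with the replicate block and gene length offset. The potassium channel count was 6 without Tg2576 mouse 1, 2 without Tg2576 mouse 4 or WT mouse 2 and 9 without WT mouse 3, and 7 without a filter on low counts. With a gene length offset it was 3, and the median went from -0.16 to -0.076 (median exon length 7060.5 bases). The spectrins Sptbn1 (-0.40) and Sptb (-0.43), of the membrane skeleton, were picked after their values were seen, and 4 of 5 spectrin genes were lower. The p of these genes reached 0.0153 and 0.0154 when 1 mouse was left out, and the spectrin count was 0 without Tg2576 mouse 4 or WT mouse 2 and 1 without Tg2576 mouse 3 or WT mouse 1. It was 4 without Tg2576 mouse 1 and 3 with a gene length offset, where the median went from -0.33 to -0.21 (median exon length 12147 bases).

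Interneurons had 2 lower genes of 18 (1.93% of all genes were lower), both enzymes of GABA synthesis. Gad1 had 349.6, 323, 337 and 330.1 CPM in WT and 300.5, 289, 265 and 251 CPM in Tg2576 mice (log2 fold change -0.28), and Gad2 had 144, 127, 158 and 132 CPM in WT and 125, 125, 88.9 and 79.1 CPM in Tg2576 mice (log2 fold change -0.42). The groups overlapped for neither gene. The count was 0 without Tg2576 mouse 3, Tg2576 mouse 4 or WT mouse 1, 1 without WT mouse 3 or 4, 2 without Tg2576 mouse 1, 0 with library sizes in place of TMM factors, and 4 with a gene length offset. Ptgs2 (-0.52) and Bdnf (-0.46), both induced by activity, were lower, with p up to 0.0144 and 0.031 when 1 mouse was left out, whereas the other 23 immediate early genes tested had no call, and 15 of the 24 were positive (median 0.17).

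The remaining cell classes showed few or no calls, where 1.16% of all genes were called higher and 1.93% lower. A single call in a list of this size is not read as a change of the list. Myelin (16 genes), oligodendrocyte precursors (14), mural cells (10), ependyma (7), subiculum (7), thalamus (8), blood cells (5), macrophages (9), lymphocytes and neutrophils (6), meninges (14) and choroid plexus (14) had 0. Choroid plexus RNA differed strongly between mice of both groups. Its sum ran from 104 to 3824 CPM in WT and from 153 to 3315 CPM in Tg2576 mice, and Ttr, the thyroid hormone carrier of this epithelium, from 51.5 to 3589.6 CPM in WT and from 117 to 2970.2 CPM in Tg2576 mice. In the classes of neighbouring tissue, 1 gene each was called in neocortex (Rprm, 0.50), layer 6b and claustrum (Nxph4, 0.74) and striatum (Pde10a, -0.36), and Sox11 (0.42) was called among 14 genes of stem cells and immature neurons. Of these, Rprm kept its call with each mouse left out, and the p of Nxph4, Pde10a and Sox11 rose to 0.0196, 0.0439 and 0.0237. The interferon response had 1 call of 23 (Stat2, 0.25), endothelium 1 of 18 (Ly6c1), calcium, sodium and HCN channels 1 of 30 (Cacng8, -0.39) and neurotrophins and growth factors 1 of 26 (Bdnf), and Stat2 and Cacng8 had p up to 0.0246 and 0.0371 under other settings. Lists of integrins and laminins, the circadian clock, chaperones and nuclear noncoding RNAs had 0 calls.

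The called genes were then read in the 7 mice given DHA. Of the 226 genes that rose under vehicle, 168 (74.3%) had the same sign between the genotypes under DHA (49.3% of all genes were positive there) and 44 (19.5%) had a p under 0.01 in that direction (1.06% of all genes). Of the 378 genes that fell, 280 (74.1%) had the same sign and 14 (3.70%) had a p under 0.01 (0.686% of all genes). The median of the lower genes went from -0.41 under vehicle to -0.084 under DHA, and that of the higher genes from 0.74 to 0.26. Genes chosen at a threshold in 1 comparison lie nearer to 0 in another by that choice alone, so these medians are a description.

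The lists differed in what was left of the difference under DHA, as a description. The median was 0.66 for reactive astrocytes, 0.58 for plaque-associated microglia, 0.42 for homeostatic microglia, 0.60 for myeloid genes and 0.65 for complement, and -0.069 for dentate granule cells and -0.08 for axon guidance. Most axon guidance genes were still negative, with 15 of 58 positive under DHA and 18 under vehicle. Of the 14 Eph receptors, 12 were negative under DHA and 10 under vehicle. Among 18 dentate genes, 6 were positive under DHA and 3 under vehicle. What was left did not divide by direction, since postsynaptic scaffold genes had -0.15 (from -0.21 under vehicle, with 2 lower calls under DHA), whereas ribosomal protein genes had -0.039 (from 0.26) and antioxidant genes 0.047 (from 0.17). Gfap differed by 1.01 and Cst7 by 3.40 under DHA, whereas Dock10 differed by -0.029 and Prox1 by -0.092. Relative to WT mice given vehicle, dentate genes lay at -0.069, -0.46, -0.36 and -0.11 in WT mice given DHA. They lay at -0.40, -0.39 and -0.30 in Tg2576 mice given DHA, about where Tg2576 mice given vehicle lay. Dock10 had 76.0 to 87.5 CPM in WT and 67.6 to 90.6 CPM in Tg2576 mice given DHA. The smaller dentate difference thus went with lower WT values, and its cause was not tested. The interaction of genotype and DHA had an unadjusted p under 0.01 for 20 of the 226 and 45 of the 378 genes. Of all genes tested, 162 had such a p (0.829%), and 0 had an adjusted p under 0.05. The 226 and 378 genes were chosen by the vehicle difference, which is part of the interaction. That choice alone raises their counts, so these cannot be set against the share of all genes.

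**Figure D5:**
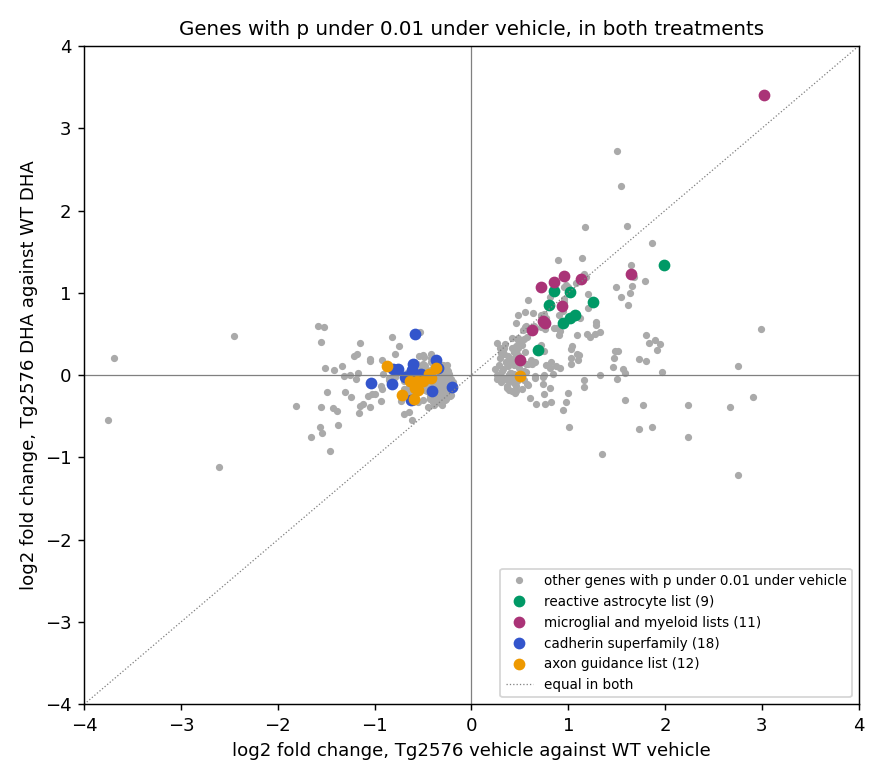
Tg2576 minus WT difference in log2 level under vehicle (x axis) and under DHA (y axis) for the 604 genes called under vehicle, with 4 groups in colour and 2 genes beyond the axes. All were chosen by their vehicle difference on the x axis. Among astrocyte and microglial genes (green, purple), Gfap (1.02 and 1.01) and Cst7 (3.02 and 3.40) lie near the line of equal change. Among cadherins and guidance genes (blue, orange), Fat4 (-0.82 and -0.11) lies nearer to 0 on the y axis, and Ephb2 (-0.59 and -0.29) lies between 0 and that line.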

How the data were processed

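Hippocampal RNA of 15 female mice was sequenced. The submitters' processing notes name FastQC 0.11.8, STAR 2.6.1c and featureCounts 1.6.0, and per the file headers the authors counted reads on exons of GENCODE M25 (GRCm38). The deposited raw counts of 55401 genes were used without change. The methods name a stranded kit with 1 µg of RNA and the labels another with 1.3 µg, and the counting names no strand, so antisense and overlapping genes cannot be separated. All file names carry 1 flow cell lane. Gene symbols came from GENCODE M21 by gene ID, for 55141 genes.

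Genes were tested with edgeR 4.0.16 (quasi-likelihood, robust, TMM factors, R 4.3.3) on all 15 mice with 1 coefficient per group, after filtering at a minimum count of 10, which left 19536 genes. Calls are at an unadjusted p under 0.01 and adjusted p-values are by Benjamini-Hochberg over all genes tested. CPM are scaled by TMM factors, and per-mouse list values are means of log2 CPM with a prior count of 2. The procedure was tested on simulated counts. Nothing states that mice of the same number belong together or come from separate litters.

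Named genes were App and Prnp, those with an adjusted p under 0.05, the 15 of lowest p in each direction without overlap at 1 CPM or more, and up to 4 of lowest p of each of 50 lists (27 cell classes and 23 functions). Serpina3n, Vim, Lcn2, Osmr, Ggta1, Col6a1, Col6a2, Sptbn1, Sptb, Ccl6, Ccl3, Mpeg1, Mvd, Plekha2, Trpc6, Npnt, Kalrn, Trem2, Apoe, Bace1, Cx3cr1 and Efna1 were added after their values were seen. The members and lists were chosen with earlier results of these data known. Alternatives were DESeq2 1.42.0, limma-voom (limma 3.58.1), other scalings and filters, the 8 vehicle mice alone, a dispersion that is not robust, a replicate block, a gene length offset and leaving out each mouse. One called gene of the cholesterol list is counted but not reported here.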

Additional observations from a re-analysis of the deposited data

Results flagged for a closer look

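In 220 groups of 4 mice (110 named genes), 5 held a mouse far from the other 3, and chance alone gives about 1 in 20 groups. Wnt10b was at 6.98 CPM in Tg2576 mouse 1 (others 1.68 to 2.32 CPM), and Prdx6 at 223 CPM in the same mouse (others 272 to 279 CPM). Insig1 was at 86.7 CPM in Tg2576 mouse 2 (others 66.6 to 68.7 CPM). Fdft1 was at 95.6 CPM in WT mouse 4 (others 76.7 to 79.7 CPM), and Tmem108 at 33.3 CPM in WT mouse 1 (others 37.3 to 37.5 CPM).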

How the results depend on the processing

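The count of 604 genes ran from 493 to 825 over the other models, scalings, filters and sample sets, and from 312 to 965 when 1 mouse was left out. Higher genes ran from 143 to 330 and lower genes from 169 to 635 when 1 mouse was left out, and DESeq2 called 357 higher. Genes with an adjusted p under 0.05 numbered 206 in DESeq2, 12 without a filter, 0 in limma-voom and 0 with a dispersion that was not robust, and from 0 to 12 when 1 mouse was left out. In limma-voom 2156 genes and in the fit without robust dispersion 2115 had an unadjusted p under 0.05. No gene called both in the fit reported and in another setting had opposite directions in them. Genes called only in another setting were not compared. App kept its call in all of these settings, at a log2 fold change of 0.40 to 0.53 when 1 mouse was left out. Of 105 named genes with a call, 71 to 96 kept it when 1 mouse was left out and 88 to 105 in the other settings. The numbers of the mice are shared across groups, and correlations of same-numbered mice were 0.0757, -0.117, 0.00673 and 0.114, so they were not taken as pairs. With a replicate block 661 genes were called, and 628 with the block and a gene length offset. Shallow libraries limit genes under about 1 CPM, and 4 mice a group give no exact permutation p below 0.0286.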
